A study of Mus musculus with 24 samples.

Results

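The 9 genes described here encode the NR4A orphan nuclear receptors (Nr4a1, Nr4a2, Nr4a3), the EGR zinc finger factors (Egr1, Egr2, Egr3) and the immediate early response proteins Ier2, Ier3 and Ier5. They were taken by name from the 27179 gene rows of a mouse RNA-seq count table, and all 9 had a row. The libraries hold 3 sorted populations of the colonic lamina propria. All donors were Nmur1iCre-eGFP mice, in which eGFP marks cells that use the gene of the neuromedin U receptor NMUR1. The populations were eGFP+ group 2 innate lymphoid cells (ILC2, sorted as CD45+ Lin- CD90.2+ CD127+ KLRG1+), eGFP+ CD4 T cells (NMUR1+ CD4) and eGFP- CD4 T cells (NMUR1- CD4, both sorted as CD45+ CD3+ CD5+ CD4+). All groups share an injury of the colon by dextran sulfate sodium (DSS): the mice were given 3% DSS over 5 days, followed by 3 days of water, and no group here was without it. Over this time mice 1 to 4 had intraperitoneal neuromedin U (NMU) and mice 5 to 8 had phosphate-buffered saline (PBS), every other day. Each mouse gave 1 library of each population, which makes 24 libraries in 6 groups of 4. The design text of the series counts 3 mice per treatment, and the mouse numbers in the labels, which cover all libraries, were followed. Age, sex and strain background are not given in the labels used here.

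Immediate early genes are transcribed within minutes of a stimulus, without the need for new protein synthesis, and their transcripts are short-lived. Calcium, cAMP and MAP kinase signals reach their promoters through CREB, serum response factor with its ETS partners, MEF2 and NFAT. The NR4A proteins bind DNA as monomers or dimers, or with retinoid X receptors, and in T cells they follow antigen receptor signalling and are tied to tolerance and exhaustion. EGR proteins bind GC-rich sites and are held in check by the corepressors NAB1 and NAB2, and EGR2 and EGR3 restrain T cell activation. NMUR1 couples to Gq proteins and calcium, and NMU is known to activate ILC2. Digestion of tissue and cell sorting are also known to switch on immediate early genes.

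The NR4A genes lie on chromosomes 15 (Nr4a1, chr15:101253902-101274795), 2 (Nr4a2, chr2:57106830-57124003) and 4 (Nr4a3, chr4:48045078-48086447) in GRCm38.p6, and Ier3 on chromosome 17 (chr17:35821713-35822911). Their upstream sequences are shown, those of the NR4A genes because every ILC2 library exceeded every CD4 T cell library for all 3, and that of Ier3 because its order across the populations was another. Of the 9 genes, 6 had an entry in the RefSeq promoter table of GRCm38.p6, and Egr1, Egr3 and Ier2 had none. The sequences run 5′ to 3′ on the strand of the gene and end at or before the transcript start, and capitals mark the cAMP response element (CRE) core TGACG on either strand or, in Nr4a1, the variant TGCGTCA, which holds that core on its other strand.
Nr4a1 (chr15:101266596-101266845, plus strand): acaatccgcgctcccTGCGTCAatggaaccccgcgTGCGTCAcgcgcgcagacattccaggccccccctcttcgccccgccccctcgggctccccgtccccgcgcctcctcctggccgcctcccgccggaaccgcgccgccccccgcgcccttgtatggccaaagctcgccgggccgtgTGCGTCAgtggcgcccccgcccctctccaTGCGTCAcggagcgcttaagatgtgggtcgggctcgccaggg
Nr4a2 (chr2:57124004-57124253, minus strand): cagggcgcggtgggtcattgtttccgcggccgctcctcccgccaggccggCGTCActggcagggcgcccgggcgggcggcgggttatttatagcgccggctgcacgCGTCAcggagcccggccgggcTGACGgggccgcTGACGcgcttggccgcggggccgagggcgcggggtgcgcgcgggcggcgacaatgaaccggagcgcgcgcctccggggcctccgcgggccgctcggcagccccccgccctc
Nr4a3 (chr4:48045055-48045104, plus strand): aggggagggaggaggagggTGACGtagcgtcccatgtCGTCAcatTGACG
Ier3 (chr17:35821463-35821683, plus strand): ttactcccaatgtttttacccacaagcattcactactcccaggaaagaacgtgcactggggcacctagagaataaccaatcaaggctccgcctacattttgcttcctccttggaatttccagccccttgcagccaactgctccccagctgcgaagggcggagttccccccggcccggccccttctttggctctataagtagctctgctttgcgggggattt

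In the full 250 bases before the start, Nr4a1, Nr4a2 and Nr4a3 each held 4 copies of TGACG, counted on both strands. The window of Nr4a1 lies inside the span of the gene and outside annotated exons, and that of Nr4a2 ends where the gene begins. That of Nr4a3 begins before the gene span, which starts at chr4:48045078, and runs into it, as does the stretch shown. In Nr4a3 the copies start at -231, -213, -205 and -147 from the transcript start, and the last of these lies past the stretch shown. Those at -213, -205 and -147 lie inside the gene span and not upstream of it. At least 1 copy was present in 17.8% of the 32851 RefSeq windows of this length, and at least 4 copies in 0.137% (45 windows). The cut at 4 copies was chosen after the counts were seen. All 4 copies in Nr4a1 were part of TGCGTCA, a heptamer present in 1.75% of windows, and no other window held 4 of them. Egr2 had 5 entries, and that at chr10:67537619-67537868 held 2 copies of TGACG and a CArG box, the binding site of serum response factor. CArG boxes were present in 1.47% of windows. Ier3 and Ier5 had no TGACG in this stretch, and Ier3 had a kappaB site at -92, a motif found in 7.25% of windows. Overlapping matches to this motif also lay at -117 and -116 in the Egr2 entry that begins at chr10:67535249. The EGR element GCGNGGGCG was present in the windows of Nr4a1 and Nr4a2 and in 4.7% of all windows. Neither the full CRE TGACGTCA (1.55% of windows) nor the NR4A monomer site AAAGGTCA (1.34%) was in any of the windows of these genes. These matches are letters in a window and were not tested as sites.

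Total counts ran from 8485266 to 17854961 per library. Marker lists were read to describe the labelled populations, and both hold genes of the sort gates. The ILC2 marker list (10 genes, among them Gata3, Il1rl1 and Il13) summed to 11334 to 14110 CPM (counts scaled to library size) in ILC2, 3441 to 5304 in NMUR1+ CD4 and 1665 to 2381 in NMUR1- CD4. The T cell list (10 genes, among them Cd3e and Trac) summed to 744 to 1384 in ILC2, 5900 to 8225 in NMUR1+ CD4 and 7119 to 8359 in NMUR1- CD4. Gate genes were Thy1, Il7r, Klrg1 and Nmur1 in the first list and Cd3d, Cd3e, Cd3g, Cd4 and Cd5 in the second. The sums were therefore in part fixed by the sort. By the test given below, 7 of the 10 ILC2 list genes were higher and 1 lower in ILC2 than in NMUR1+ CD4. Against NMUR1- CD4, 9 were higher and 1 lower. Immunoglobulin genes took 0.784 to 30.4% of counts in NMUR1+ CD4 libraries, 4 of which were above 20%, against 0.0241 to 7.93% in ILC2 and 0.146 to 5.58% in NMUR1- CD4. The tests that use NMUR1+ CD4 were therefore also run without those 4 libraries, and the values are given where the call of a gene described here ended or began or the count of a list moved by over 1.5 times.

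The 9 genes together took 0.635 to 1.48% of all counts in ILC2, against 0.127 to 0.217% in NMUR1+ CD4 and 0.116 to 0.186% in NMUR1- CD4, so the ILC2 range did not meet the CD4 ranges. Nr4a1 alone averaged 5916 ± 2052 CPM (SD, n = 8) in ILC2. Divided by the length of the annotated exons, the levels of the genes can be set side by side. In ILC2 of PBS mice Nr4a1 was the highest at 2145 ± 423 CPM per kilobase (SD, n = 4), and Ier2 followed at 1329 ± 19. On the same scale Egr1 stood at 214 ± 62.7 and Nr4a2 at 167 ± 89.5. Ier5 reached 55.2 ± 6.88, while Egr2 (13.3 ± 11.9), Nr4a3 (13 ± 2.95) and Ier3 (10.3 ± 3.79) lay close together, within their spread. Egr3 was near the limit of detection at 0.547 ± 0.486 CPM per kilobase. In ILC2 of NMU mice Ier2 (1353 ± 334) and Nr4a1 (1227 ± 239) lay within their spread of each other. In the CD4 populations the order of these leading genes was the other way round: Ier2 averaged 445 ± 56.1 CPM per kilobase in NMUR1+ CD4 and 366 ± 41.7 in NMUR1- CD4 (n = 8), and Nr4a1 266 ± 60.2 and 159 ± 32.1.

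**Figure D1:**
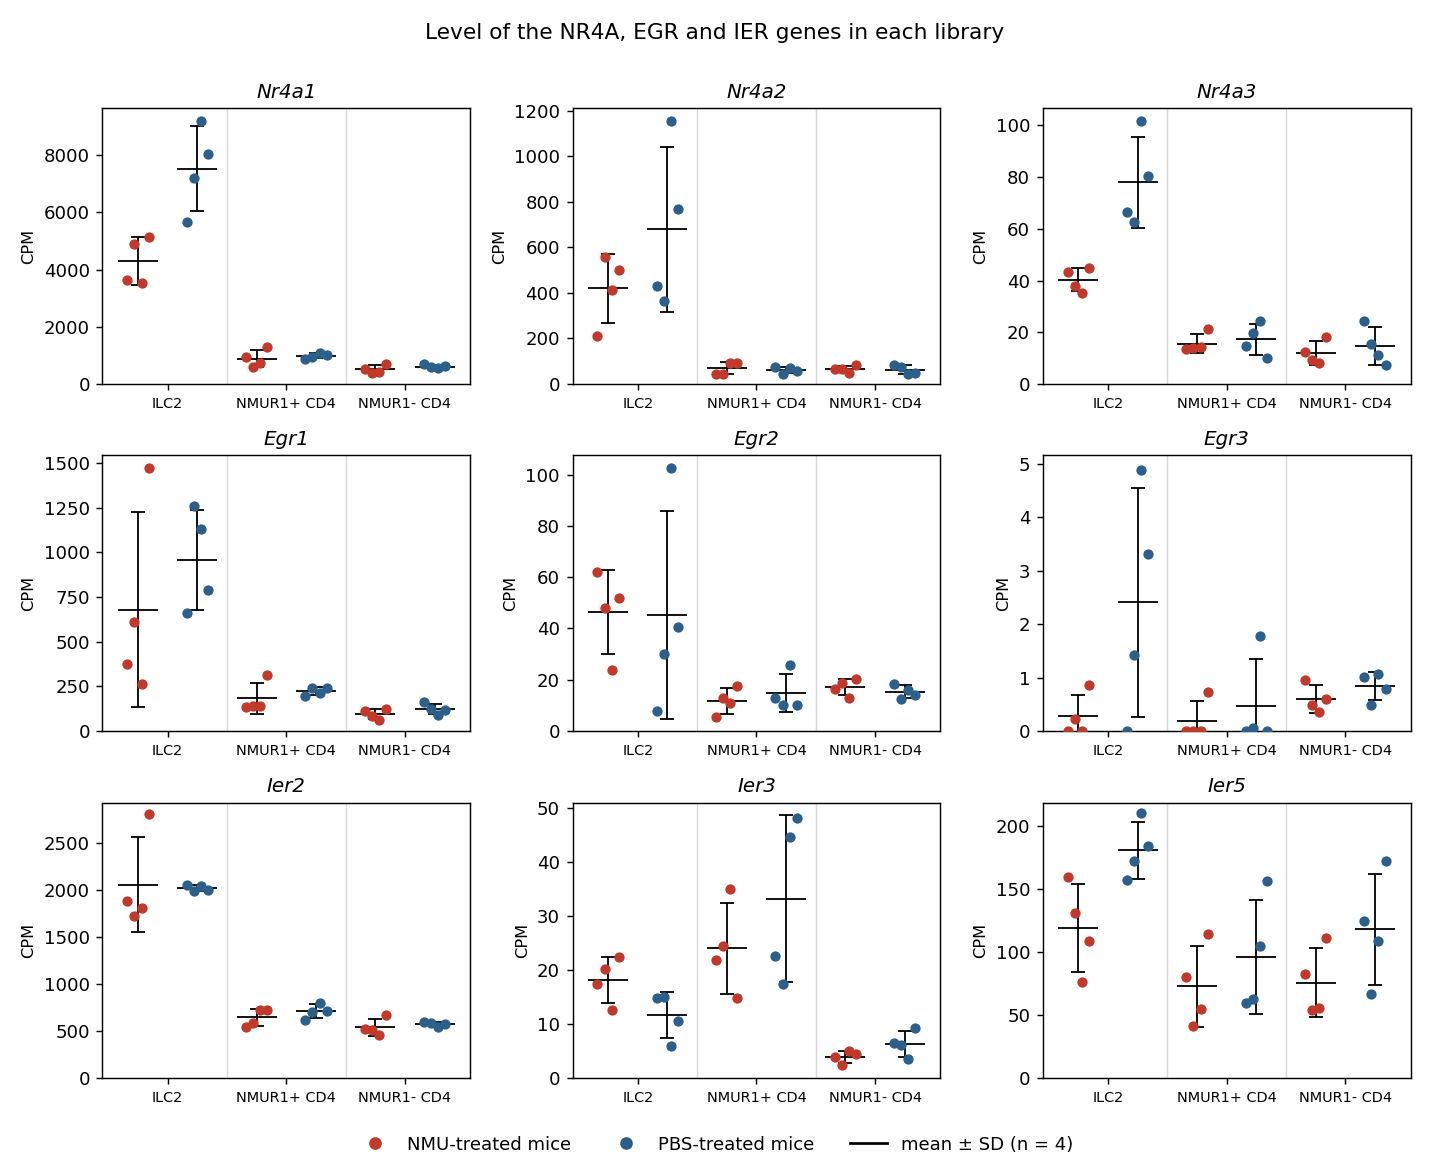
Level of each gene in the 24 libraries. The vertical axes are CPM on a linear scale from 0 (each panel has its own range), the horizontal axis gives the population, points are libraries of NMU (red) or PBS (blue) mice, and bars are mean ± SD of 4. Every ILC2 library lies above every CD4 library for Nr4a1, Nr4a2, Nr4a3 and Ier2, while Ier3 is highest in NMUR1+ CD4.

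ILC2 were compared with each CD4 population, averaged over the treatments. Against NMUR1+ CD4, 7 of the 9 genes were higher in ILC2, 1 was lower and Egr3 did not pass the test (adjusted p under 0.05, edgeR's quasi-likelihood test with Benjamini-Hochberg adjustment over all genes). Of all 13509 genes tested, 15.1% were higher and 23.5% lower. Against NMUR1- CD4, 8 of 9 were higher and none lower, where 16.4% of all genes were higher and 24.1% lower, and Egr3 again did not pass. The median log2 difference of the 9 genes was 1.77 against NMUR1+ CD4 (all genes, -0.10) and 1.87 against NMUR1- CD4 (all genes, -0.12). Both comparisons use the same ILC2 libraries. In bulk RNA a smaller number of expressing cells and less RNA per cell cannot be told apart.

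Nr4a1, which encodes Nur77, a receptor induced by antigen receptor signals in T cells, ranged from 3533 to 9203 CPM in ILC2 (median 5414), from 582 to 1273 in NMUR1+ CD4 (median 939) and from 386 to 708 in NMUR1- CD4 (median 568). No ILC2 library overlapped a CD4 library. The level was 6.11-fold higher in ILC2 than in NMUR1+ CD4 (log2 2.61, SE 0.15, adjusted p = 7.83e-12) and 10.2-fold higher than in NMUR1- CD4 (log2 3.35, SE 0.16, adjusted p = 1.53e-13). By group mean, Nr4a1 ran from ILC2 of PBS mice through ILC2 of NMU mice to NMUR1+ CD4 and then NMUR1- CD4. Neighbouring CD4 groups in this order overlapped, and the 2 ILC2 groups did not.

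Nr4a2 (Nurr1) ranged from 210 to 1155 CPM in ILC2 (median 466), from 42.4 to 91.4 in NMUR1+ CD4 and from 44.8 to 83.3 in NMUR1- CD4. Its levels in the CD4 populations covered the same range, and no ILC2 library reached down to it. It was 8.37-fold higher in ILC2 than in NMUR1+ CD4 (log2 3.07, SE 0.27, adjusted p = 7.24e-09) and 8.43-fold higher than in NMUR1- CD4 (log2 3.08, SE 0.27, adjusted p = 5.2e-09). Nr4a3 (Nor1) was the least abundant NR4A gene per length, with 35.3 to 101.9 CPM in ILC2, 10.2 to 24.3 in NMUR1+ CD4 and 7.29 to 24.4 in NMUR1- CD4. The ILC2 libraries again stood above all others, by 3.42-fold (log2 1.77, SE 0.23) and 4.25-fold (log2 2.09, SE 0.24).

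Among the EGR genes, Egr1 ranged from 261 to 1473 CPM in ILC2 (median 724), from 135 to 312 in NMUR1+ CD4 (median 205) and from 62.3 to 161 in NMUR1- CD4 (median 116). The lowest ILC2 library overlapped the highest NMUR1+ CD4 library, and none overlapped NMUR1- CD4. Egr1 was 4-fold higher than in NMUR1+ CD4 (log2 2.00, SE 0.29) and 7.44-fold higher than in NMUR1- CD4 (log2 2.90, SE 0.30). In all 8 mice the ILC2 library was above both CD4 libraries of the same mouse.

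Egr2 spanned 7.92 to 103 CPM in ILC2, a wider range than in the CD4 populations, where it ran from 5.28 to 25.7 (NMUR1+) and from 12.6 to 20.1 (NMUR1-). Its log2 differences were 1.80 (SE 0.36, adjusted p = 0.000324) and 1.51 (SE 0.35, adjusted p = 0.00147), with the ILC2 library above its CD4 counterpart in 7 of 8 mice in each comparison. Egr3 was barely detected anywhere, with 128 counts over all 8 ILC2 libraries, 28 over NMUR1+ CD4 and 83 over NMUR1- CD4. It was the 1 gene of the 9 that passed neither comparison (log2 1.46, SE 1.14, adjusted p = 0.33, and log2 0.21, SE 1.14, adjusted p = 0.906). Without the 4 libraries rich in immunoglobulin RNA the first of these became log2 5.42 with adjusted p = 0.0173. The NMUR1+ CD4 libraries kept there, of mice 2, 3, 6 and 8, had 0, 0, 1 and 0 counts of Egr3. That value therefore rests on the floor of detection and is not read as a difference. Over the 16 alternatives of the first comparison the adjusted p of Egr3 ran from 0.0173 to 0.507.

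Ier2, which encodes a nuclear protein, ranged from 1721 to 2814 CPM in ILC2, from 543 to 803 in NMUR1+ CD4 and from 462 to 667.1 in NMUR1- CD4. ILC2 stood above both without overlap, by 3.02-fold (log2 1.59, SE 0.10) and 3.66-fold (log2 1.87, SE 0.10). Ier5, which takes part in the heat shock factor response, overlapped between all populations, with 76.4 to 210 CPM in ILC2, 41.2 to 157 in NMUR1+ CD4 and 53.7 to 172 in NMUR1- CD4. It was 1.76-fold higher in ILC2 than in NMUR1+ CD4 (log2 0.81, SE 0.24, adjusted p = 0.0107). The difference from NMUR1- CD4 was small (log2 0.63, SE 0.24, adjusted p = 0.041), and its adjusted p was 0.0593 without the filter on low counts and 0.0931, 0.0948, 0.0856 and 0.115 without mouse 1, 2, 6 or 7. Its adjusted p over the 15 alternatives ran from 0.00434 to 0.115.

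Ier3 encodes a stress-induced protein that modulates cell survival and is a known NF-kappaB target. It had another order, with 14.8 to 48.3 CPM in NMUR1+ CD4 (median 23.5), 6 to 22.4 in ILC2 (median 15) and 2.41 to 9.31 in NMUR1- CD4 (median 4.73). ILC2 lay below NMUR1+ CD4 (log2 -0.96, SE 0.27, adjusted p = 0.00704), in 7 of 8 mice, and above NMUR1- CD4 (log2 1.53, SE 0.28, adjusted p = 0.000104), in 8 of 8. Markers of other cells differed beside it. Of 12 macrophage and dendritic cell genes, 10 were lower and 1 higher in ILC2 than in NMUR1+ CD4, and they summed to 87.3 to 1015 CPM in ILC2, 1018 to 3350 in NMUR1+ CD4 and 288 to 1022 in NMUR1- CD4. Of 11 B and plasma cell genes, all 11 were lower in ILC2 than in NMUR1+ CD4 (median log2 -3.91), and they summed to 375 to 59504, 5328 to 304716 and 1089 to 37685 CPM. Without the 4 immunoglobulin-rich libraries 5 of these 11 were lower. All genes of both lists were detected in each population, and their part in the Ier3 difference was not tested.

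The order of the groups differed between the genes. For Nr4a2 the 2 ILC2 groups (680 ± 363 CPM in PBS and 420 ± 152 in NMU mice, SD, n = 4) overlapped each other, and the CD4 groups, from 60.1 ± 14.1 to 67.9 ± 26.5, could not be ordered beyond their spread. For Nr4a3 the ILC2 groups (78 ± 17.7 and 40.3 ± 4.46) were apart, and the CD4 groups, from 12 ± 4.49 to 17.2 ± 6.12, overlapped. Egr1 fell into ILC2 (959 ± 281 and 680 ± 548), NMUR1+ CD4 (223 ± 21.2 and 183 ± 86.4) and NMUR1- CD4 (123 ± 28.9 and 95.6 ± 27.5), PBS mice first in each. Its ILC2 groups were apart from the next group in this order, and all other neighbours overlapped. Egr2 had its highest means in ILC2 (46.5 ± 16.3 in NMU and 45.3 ± 40.6 in PBS mice), and every group overlapped its neighbour in order. Ier2 had a gap below ILC2 (2059 ± 508 and 2023 ± 28.9), and its CD4 groups, from 539 ± 88.8 to 710 ± 75.2, overlapped their neighbours. Ier3 ran from NMUR1+ CD4 (33.2 ± 15.5 in PBS and 24 ± 8.37 in NMU mice) over ILC2 (18.2 ± 4.23 in NMU and 11.6 ± 4.29 in PBS mice) to NMUR1- CD4 (6.35 ± 2.36 in PBS and 3.94 ± 1.11 in NMU mice), with overlap at each step. Ier5 was highest in ILC2 of PBS mice (180.7 ± 22.5), and every neighbouring pair of groups overlapped, down to NMUR1+ CD4 of NMU mice (72.6 ± 32.3).

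Without overlap of any library, 4 genes were higher in ILC2 than in NMUR1+ CD4 (4.09% of all genes) and 5, these 4 and Egr1, were higher than in NMUR1- CD4 (5.86% of all genes).

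**Figure D2:**
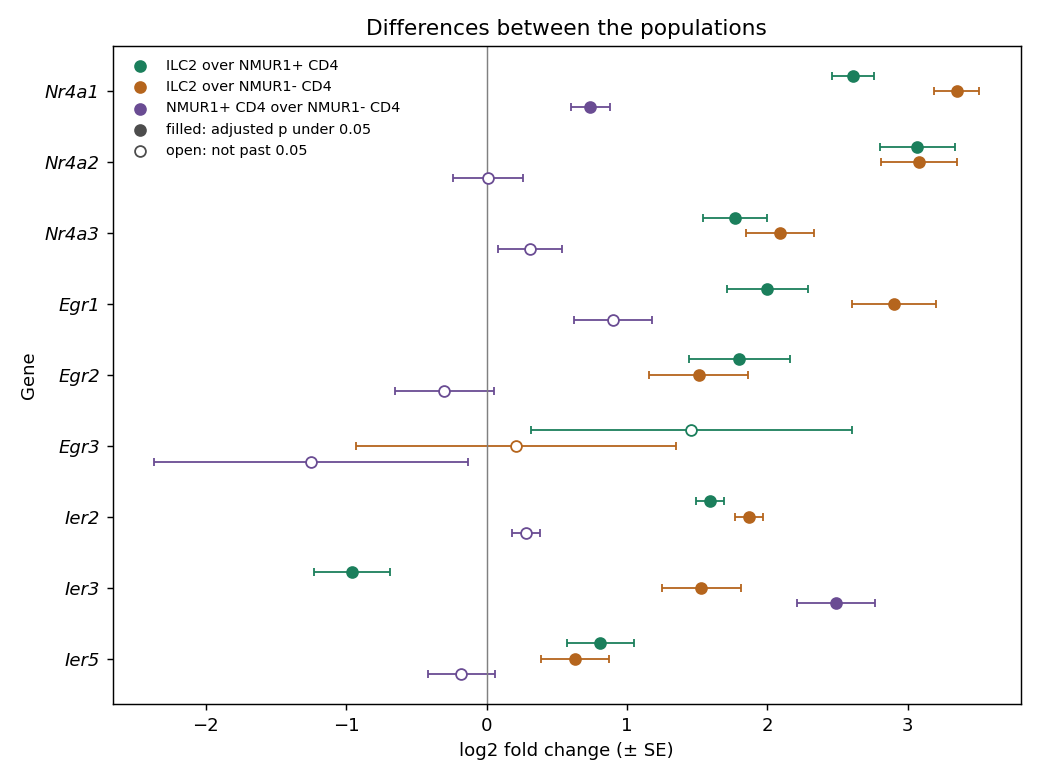
Differences between the populations for the 9 genes. The horizontal axis is the log2 fold change with its SE, colours give the comparison, and filled points passed an adjusted p of 0.05. The NR4A genes sit between 1.77 and 3.35 for ILC2 over CD4 T cells, and Ier3 is the only filled point left of 0.

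Other parts of the immediate early response were read from lists, counted as genes past the same threshold. Of all genes, 15.1% were higher in ILC2 and 23.5% lower against NMUR1+ CD4. Against NMUR1- CD4 the shares were 16.4% and 24.1%. Of 11 AP-1 subunits, 8 were higher and 2 lower in ILC2 against either CD4 population. Fosl1 (log2 4.76 and 5.27), Atf3 (2.66 and 4.14) and Fosb (2.37 and 3.61) had the largest positive values, and Batf3 (-5.35 and -4.18) and Batf (-0.74 and -0.76), which pair with JUN proteins in activated lymphocytes, were lower. Of 38 other immediate early genes, 27 were higher and 5 lower against NMUR1+ CD4, and 26 higher and 4 lower against NMUR1- CD4. Among them were Klf4 (log2 3.84 and 4.35), a zinc finger factor, Gadd45b (2.25 and 3.39), a stress sensor, and Plk2 (2.39 and 2.80), a polo-like kinase. Socs3, a cytokine signalling inhibitor, was lower (log2 -1.80 and -1.55). The median log2 of the 38 genes was 1.02 and 1.31.

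Of 7 measured partners and corepressors, 2 were higher and 2 lower in ILC2 against NMUR1+ CD4, and 1 higher and 2 lower against NMUR1- CD4. Rxrg, which encodes retinoid X receptor gamma, was higher in both. It had 4973 counts over ILC2 of NMU mice and 4323 over ILC2 of PBS mice, 53.5 to 157 CPM, against 26 and 25 counts in NMUR1+ CD4 and 0 and 2 in NMUR1- CD4. No CD4 library exceeded 3.28 CPM. Nab1 was lower in ILC2 (log2 -0.40, SE 0.13, adjusted p = 0.0177, and -0.71, SE 0.13, adjusted p = 0.000122). The first of these did not pass without mouse 1, 2, 5, 6 or 7 or without the 4 immunoglobulin-rich libraries, which left none of the partners lower against NMUR1+ CD4, and its adjusted p ran from 0.00348 to 0.164 over 16 alternatives. Nab2, the other corepressor of EGR proteins and itself an EGR target, was called in neither (log2 0.22, SE 0.35, and 0.32, SE 0.35). Of the 18 upstream factors, 4 were higher and 4 lower against NMUR1+ CD4, and 5 higher and 5 lower against NMUR1- CD4. Beside the counts of both lists, 15.1% of all genes were higher and 23.5% lower against NMUR1+ CD4. The shares were 16.4% and 24.1% against NMUR1- CD4, so these lists as a whole are not shown to differ from other genes. Elk4, an ETS partner of serum response factor (log2 1.31 and 1.24), the CREB coactivator gene Crtc3 (0.74 and 0.82), Crem (0.57 and 1.05) and Creb1 (0.52 and 0.49) were higher in both, Creb1 against NMUR1+ CD4 in 15 of 16 alternatives (log2 0.45 without the immunoglobulin-rich libraries, adjusted p = 0.0601, the highest of a range from 0.000328). Nfatc1, Nfatc2 and Nfatc3, the calcium-responsive NFAT factors, were lower in both, with log2 values from -1.13 to -0.69. Mef2c was lower too (-3.67 and -1.71).

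Genes that T cells are known to place under EGR2 and EGR3 went in both directions in ILC2, 4 higher and 7 lower of 15 against NMUR1+ CD4, and 5 higher and 7 lower against NMUR1- CD4. For this and the next lists, the shares of all genes were 15.1% higher and 23.5% lower, and 16.4% and 24.1%. Rnf128, the ubiquitin ligase GRAIL, was higher (log2 3.91 and 5.22), as was Cdkn1a (1.60 and 2.55), while Lag3 (-4.64 and -4.43) and Fasl (-3.28 and -4.76) were lower. Of 12 genes linked to NR4A in T cells, 3 were higher and 7 lower against NMUR1+ CD4, and 4 higher and 7 lower against NMUR1- CD4. Pdcd1, which encodes PD-1, was higher (log2 1.91 and 2.54), and Ctla4 (-5.09 and -4.70) and Tigit (-3.88 and -3.65) were lower. CD5 was part of the CD4 T cell gate, so its gene in this list is no finding. Of 12 heat shock genes, which serve as a sign of stress, 4 were higher and 1 lower in each comparison, led by Dnaja1 (log2 1.60 and 1.85). Their summed level was 5397 to 9631 CPM in ILC2, 4674 to 5934 in NMUR1+ CD4 and 3534 to 6035 in NMUR1- CD4. Its part in the higher levels of the immediate early genes in ILC2 was not tested.

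Within the CD4 T cells, NMUR1+ and NMUR1- libraries were compared. Of the 9 genes, 2 were higher in NMUR1+ CD4, Ier3 and Nr4a1, and none was lower. Of all genes, 5.49% were higher and 2.83% lower. Ier3 read 21.8, 24.5, 35 and 14.8 CPM in NMUR1+ CD4 of NMU mice and 22.6, 17.4, 44.7 and 48.3 in those of PBS mice. In NMUR1- CD4 it read 3.91, 2.41, 4.93 and 4.52 (NMU) and 6.43, 6.1, 3.56 and 9.31 (PBS). The lowest NMUR1+ library was above the highest NMUR1- library, which 2.29% of all genes showed in this direction. The difference was 5.63-fold (log2 2.49, SE 0.28, adjusted p = 6.64e-06), and it passed under all 16 alternatives (log2 2.27 to 2.64).

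Nr4a1 was 1.67-fold higher in NMUR1+ CD4 (log2 0.74, SE 0.14, adjusted p = 0.00191), in 8 of 8 mice. Without the 4 immunoglobulin-rich libraries the difference was 0.55 and its adjusted p was 0.0676, the highest of the 16 alternatives, of which the lowest was 1.59e-05. Egr1 (log2 0.90, SE 0.28, adjusted p = 0.0533) and Ier2 (log2 0.28, SE 0.10, adjusted p = 0.0807) were also above in 8 of 8 mice and did not pass. With the mouse as a replicate block both passed, Egr1 at log2 0.86 (adjusted p = 0.0086) and Ier2 at 0.28 (adjusted p = 0.0282), which made 4 genes in place of 2. Over the 16 alternatives the adjusted p of Egr1 ran from 0.00376 to 0.287 and that of Ier2 from 0.00764 to 0.377. Without mouse 4 both passed too. Nr4a2 (log2 0.01, SE 0.25), Nr4a3 (0.31, SE 0.23), Egr2 (-0.30, SE 0.35), Egr3 (-1.25, SE 1.12) and Ier5 (-0.18, SE 0.24) did not pass.

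Of the AP-1 list, 5 genes were higher in NMUR1+ CD4 and none lower, led by Atf3 (log2 1.49), Fos (1.43) and Fosb (1.24). Beside the lists, 5.49% of all genes were higher and 2.83% lower. Of the 38 other immediate early genes, 16 were higher and 2 lower, with Zfp36, an mRNA decay factor (1.27), Gadd45b (1.14) and the early activation gene Cd69 (1.05) in the lead, and Klf2 (-1.25) and Btg1 (-0.53), genes of resting lymphocytes, lower. Without the 4 immunoglobulin-rich libraries 2 of the AP-1 genes were higher (Atf3 at log2 1.74 and Fos at 1.40), and of the 38 others 7 were higher and 1 lower. Fewer genes were called there in general, 289 higher and 104 lower of 14293, against 741 and 382 of 13509 with all libraries. The median log2 was 0.70 for the AP-1 list and 0.53 for the 38 others, against 0.69 and 0.52 with all libraries. Fosb (log2 1.02, adjusted p = 0.109) and Klf2 (-1.58, adjusted p = 0.0792) were among the genes of these lists that no longer passed. Over the 16 alternatives the adjusted p of Fosb ran from 9.05e-05 to 0.109 and that of Klf2 from 0.0026 to 0.103, and Klf2 passed in 8, not without mouse 1, 2, 3, 5, 6 or 7. Cell type lists moved with these genes. The ILC2 list had 8 of 10 genes higher and 1 lower in NMUR1+ CD4, with a median log2 of 1.95, and 7 higher and none lower without the 4 libraries. Among the 8 were the type 2 cytokine genes Il5 (log2 7.01) and Il13 (5.98), their regulator Gata3 (1.63), and Nmur1 (3.24), whose eGFP allele was the gate and which is therefore no finding. The sums of this list, 3441 to 5304 CPM in NMUR1+ CD4 and 1665 to 2381 in NMUR1- CD4, did not overlap. The macrophage and dendritic cell list had 5 of 12 genes higher and none lower, and B and plasma cell markers had 7 of 11 higher and none lower, which became 1 and 1 without the 4 libraries. The B and plasma cell list summed to 5328 to 304716 CPM in NMUR1+ CD4 and 1089 to 37685 in NMUR1- CD4. Cd14 averaged 513 ± 289 and 545 ± 234 CPM (SD, n = 4) in the NMUR1+ groups and 85.5 ± 21.8 and 87.5 ± 18.6 in the NMUR1- groups. Whether the RNA of the ILC2 list came from the CD4 T cells themselves or from ILC2 cannot be told apart in bulk RNA. The part of ILC2, macrophage and plasma cell RNA in the higher Ier3, Nr4a1 and AP-1 levels was not tested.

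The effect of NMU was then read within each population. In ILC2, no gene of the 9 passed the test between NMU and PBS mice, where 0.66% of 11205 genes were called. At an unadjusted p under 0.05, 3 of them were lower with NMU (Nr4a1, Nr4a3 and Ier5) and none was higher, where 6.34% of all genes were lower and 6.08% higher at that level. DESeq2 called 2 (Nr4a1 and Nr4a3) and limma voom none. Over all 11205 genes DESeq2 called 454, against 74 in edgeR. The median log2 difference of the 9 genes was -0.63, and that of all genes -0.03.

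Nr4a1 read 3640, 4892, 3533 and 5158 CPM in ILC2 of NMU mice and 5670, 7196, 9203 and 8034 CPM in ILC2 of PBS mice. Every PBS library was above every NMU library. The means were 4306 ± 839 and 7526 ± 1486 (SD, n = 4), a log2 difference of -0.83 (SE 0.18, adjusted p = 0.0793). It passed in 3 of 15 alternatives, in DESeq2 (adjusted p = 0.000228), without the filter on low counts (0.0431) and in a fit of all 24 libraries (0.0194), and the log2 value stayed between -0.93 and -0.71. With the plasma cell gene Jchain and the macrophage gene Lyz2 as covariates it was -0.84 with the highest adjusted p of the alternatives, 0.255. Over all genes the fit of all 24 libraries called 1053 of 13509, and the fit with covariates 5 of 11205.

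Nr4a3 showed the same separation, with 43.3, 37.7, 35.3 and 44.7 CPM in NMU mice and 66.7, 62.8, 101.9 and 80.4 in PBS mice. Its log2 difference was -0.97 (SE 0.21, adjusted p = 0.0793), and it passed in 1 of 15 alternatives, DESeq2 (0.00433, of a range up to 0.249). No other gene of the 9 separated the treatments in ILC2, and 4.78% of all genes were lower with NMU without overlap. Nr4a2 read 210, 557, 413 and 500 CPM with NMU and 431, 363, 1155 and 769 with PBS (log2 -0.72, SE 0.39, adjusted p = 0.521). The treatments overlapped, and the high mean of the PBS group came from mice 7 and 8.

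Egr1 read 376, 612, 261 and 1473 CPM with NMU and 659, 1258, 1130 and 789 with PBS. The highest value of all belonged to NMU mouse 4, the other NMU mice lay below every PBS mouse, and the log2 difference was -0.51 (SE 0.47, adjusted p = 0.753). Egr2 read 62.2, 48.1, 23.7 and 52 with NMU and 7.92, 30.2, 103 and 40.5 with PBS, so both extremes were PBS mice and the log2 difference was 0.01 (SE 0.61). Egr3 had 14 counts over the 4 NMU libraries and 114 over the 4 PBS libraries. PBS mouse 5 and NMU mice 1 and 3 had none, and the log2 difference of -3.10 had an SE of 1.79 (adjusted p = 0.556).

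Ier2 did not pass either (log2 0.01, SE 0.15, adjusted p = 0.994), with PBS libraries within 1994 to 2052 CPM and NMU libraries from 1721 to 2814. Ier5 read 159, 131, 76.4 and 109 CPM with NMU and 157, 172, 210 and 184 with PBS. Only NMU mouse 1 exceeded a PBS mouse, and the log2 difference was -0.63 (SE 0.21, adjusted p = 0.24). Ier3 pointed the other way, with 17.5, 20.2, 12.6 and 22.4 CPM with NMU and 14.9, 15, 6 and 10.6 with PBS, but the groups overlapped and the log2 difference of 0.63 (SE 0.43, adjusted p = 0.632) did not pass.

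**Figure D3:**
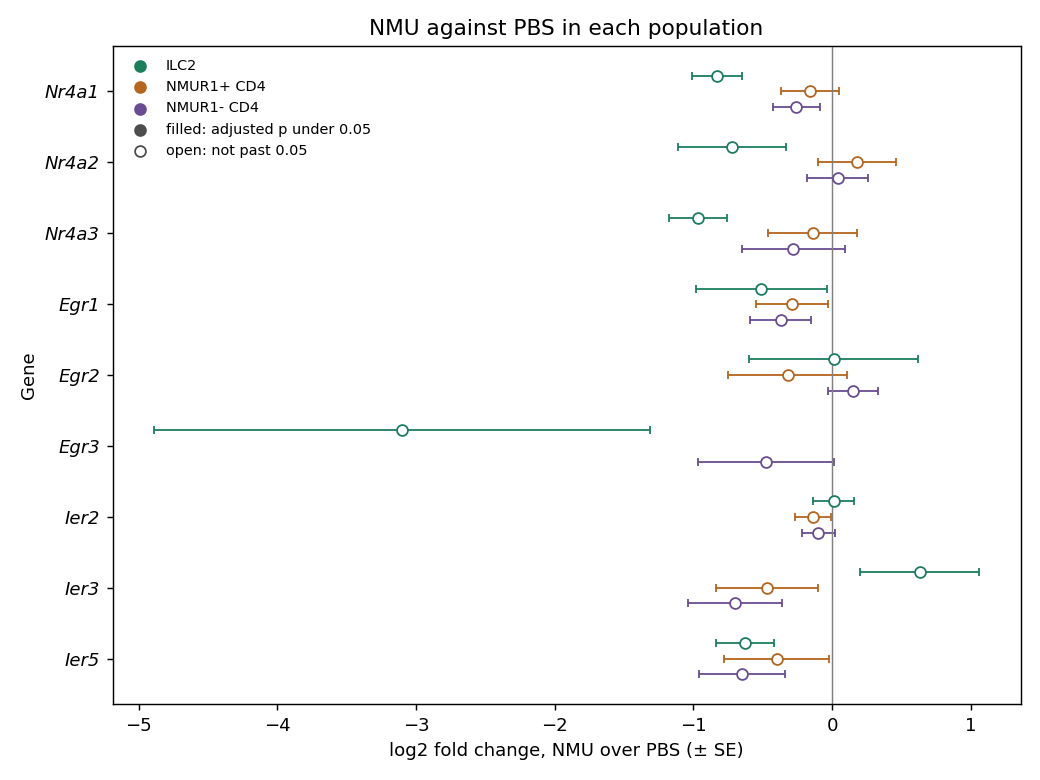
NMU against PBS for the 9 genes in each population. The horizontal axis is the log2 fold change with its SE, and no point passed an adjusted p of 0.05. The ILC2 values of the NR4A genes lie between -0.97 and -0.72, and Egr3 in NMUR1+ CD4 has no value because it did not pass the filter on low counts.

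The related lists gave few calls in ILC2, where 0.66% of all genes were called. Of 10 measured AP-1 genes, 1 fell with NMU, Junb, from 13696 ± 1033 to 8585 ± 890 CPM (SD, n = 4; log2 -0.69, SE 0.10, adjusted p = 0.0169). Their median was -0.44, and that of all genes was -0.03. Of 38 other immediate early genes, 2 rose, Irf4 (log2 2.02, SE 0.19) and the MAP kinase phosphatase gene Dusp4 (1.67, SE 0.15), and none fell, although 26 of the 38 values were below 0 and their median was -0.25. At an unadjusted p under 0.05, 5 AP-1 genes were lower and 0 higher, and 12 of the 38 were lower and 2 higher. Of all genes, 6.34% were lower and 6.08% higher at that level. The AP-1 sums did not overlap, at 11961 to 15002 CPM with NMU and 19196 to 22329 with PBS. Of 10 measured genes linked to NR4A in T cells, 3 rose and none fell: Ctla4 (log2 2.36, SE 0.37), Tox (1.30, SE 0.14) and Pdcd1 (0.68, SE 0.11). All 10 had a log2 value above 0, with a median of 0.99 (all genes, -0.03), and 6 were higher at that unadjusted level. The NR4A genes themselves had values below 0 that did not pass, and a relation between them and this list was not tested. No gene of the partner, upstream factor or EGR-linked lists passed. Irf4 and Dusp4 passed in all 15 alternatives and Tox in 14. Junb passed in 9, not without mouse 3, 4, 5 or 8 (adjusted p up to 0.291), Ctla4 in 9, not without mouse 4, 5, 6, 7 or 8 (up to 0.216), and Pdcd1 in 7, not without mouse 3, 4, 5, 6, 7 or 8 (up to 0.335).

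Heat shock and cell type lists were read beside these values, and 2 of them separated the treatments in ILC2. The summed heat shock level was 5397 to 6835 CPM with NMU and 6885 to 9631 with PBS, without overlap. Of its 12 genes 1, Dnaja1, passed as lower (log2 -0.85, SE 0.16, adjusted p = 0.047), with a list median of -0.52, and it passed in 5 of 15 alternatives and not when any 1 mouse was left out (adjusted p up to 0.319). At an unadjusted p under 0.05, 7 of the 12 were lower and 0 higher. Epithelial markers were above in the NMU group without overlap, at 38.4 to 65 against 13.2 to 28.2 CPM, with 1 of 3 tested past the test and Muc2 at 0 in the NMU group. The sums of the B and plasma cell, macrophage and fibroblast lists overlapped between the treatments, and none of their genes passed. Most of their values were lower with NMU. Immunoglobulin genes took 0.0241 to 0.867% of counts with NMU and 0.665 to 7.93% with PBS. Over all genes the median log2 was -0.03, and 6.34% were lower and 6.08% higher at an unadjusted p under 0.05. B and plasma cell markers summed to 375 to 5511 CPM with NMU and 4776 to 59504 with PBS (0 of 9 tested passed). Of these 9, 8 were below 0 (median log2 -2.77), with 6 lower and 1 higher at an unadjusted p under 0.05. Macrophage and dendritic cell markers summed to 87.3 to 370 and 133 to 1015 (0 of 10), with Flt3 at 0 in the NMU group. Of these 10, 9 were below 0 (median log2 -1.79), with 3 lower and 0 higher at that unadjusted level. Fibroblast markers summed to 0 to 33.4 and 12 to 379 (0 of 5), with Lum at 0 in the NMU group. All 5 were below 0 (median log2 -4.49), with 3 lower and 0 higher at that level. The T cell list summed to 869 to 1384 CPM with NMU and 744 to 1092 with PBS (0 of 9 tested passed). Of these 9, 2 were higher and 0 lower at that level. The ILC2 list summed to 11334 to 14110 and 11427 to 12284 CPM. Of its 10 genes 1 passed, as higher, and 3 were higher and 2 lower at that level. The part of these readings in the NR4A values was not tested, beyond the fit with Jchain and Lyz2 given above.

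In NMUR1+ CD4 T cells none of the 8 genes tested passed, and none had an unadjusted p under 0.05. Egr3 did not pass the filter, with 8 counts over the NMU libraries and 20 over the PBS libraries. Of 12061 genes 0% were called by edgeR and 2.55% (307) had an unadjusted p under 0.05, while DESeq2 called 2 and limma voom 0. Of the 8 values, 7 were below 0, where 49.2% of all genes were, and their median was -0.22. Nr4a1 read 929, 582, 738 and 1273 CPM with NMU and 876, 950, 1089 and 1024 with PBS, so the NMU mice lay on both sides of the PBS mice (log2 -0.16, SE 0.21). The largest difference was that of Ier3 (-0.47, SE 0.37).

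In NMUR1- CD4 T cells none of the 9 genes passed or had an unadjusted p under 0.05, again with 0% of 12103 genes called by edgeR (7.25%, or 877, at an unadjusted p under 0.05; DESeq2 called 21, none of them among the 9, and limma voom 0). Of the 9 values, 7 were below 0, where 48.7% of all genes were. Nr4a1 read 515, 386, 432 and 708 CPM with NMU and 682.7, 577, 560 and 610 with PBS (log2 -0.26, SE 0.17). Ier3 (-0.70, SE 0.34, adjusted p = 0.693) and Ier5 (-0.65, SE 0.31, adjusted p = 0.697) had the largest values. No gene of the AP-1, immediate early, partner, upstream, EGR-linked or NR4A-linked lists passed in either CD4 population.

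Whether NMU acted differently between populations was tested as a difference of differences. None of the 9 genes passed for ILC2 against NMUR1+ CD4 (0.725% of all genes), for ILC2 against NMUR1- CD4 (0.533%) or for NMUR1+ against NMUR1- CD4 (0%, where DESeq2 called 4 genes). An unadjusted p under 0.05 was reached by 13.2%, 11.3% and 1.16% of all genes in these comparisons, and among the 9 genes by Nr4a1 for ILC2 against NMUR1+ CD4 (log2 -0.64, SE 0.29, adjusted p = 0.326) and Ier3 for ILC2 against NMUR1- CD4 (1.33, SE 0.54, adjusted p = 0.321). The lower NR4A values of ILC2 in NMU mice are therefore not shown to be particular to ILC2. Of the genes in the related lists, 4 passed this test between ILC2 and both CD4 populations, not all of them under the alternatives. Each had the higher value in ILC2: Irf4 (log2 2.17 and 2.06), Dusp4 (1.82 and 2.01), Ctla4 (2.31 and 2.27) and Ndrg1, a gene tied to T cell anergy (3.13, adjusted p = 0.0407, and 3.26, adjusted p = 0.0349). Tox2, of the NR4A-linked list, differed between ILC2 and NMUR1- CD4 (3.13, adjusted p = 0.0381). Irf4 passed in all alternatives of both comparisons (15 and 14). Ctla4 did not pass against NMUR1+ CD4 without the 4 immunoglobulin-rich libraries (log2 2.38, adjusted p = 0.1, the highest of a range from 1.12e-07) and passed in the other 14 and in all 14 against NMUR1- CD4. Dusp4 passed in 9 of 15, not without mouse 1, 3, 5, 6 or 8, and in 12 of 14, not without mouse 5 or 8. Ndrg1 passed in 6 of 15 and 6 of 14, not without mouse 1, 2, 3, 4, 7 or 8, and with the mouse as a replicate block its adjusted p was 0.0643 and 0.0532 (ranges 0.000241 to 0.297 and 0.000113 to 0.125). Against NMUR1+ CD4 it did not pass without the 4 immunoglobulin-rich libraries either, which left 0 genes of the EGR-linked list. Tox2 passed in 6 of 14, not without mouse 1, 2, 3, 4, 5 or 8.

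The genes varied together between mice to different degrees. In ILC2, PBS mouse 7 had the highest value of 6 genes (Nr4a1, Nr4a2, Nr4a3, Egr2, Egr3 and Ier5) and the lowest of Ier3, and NMU mouse 4 had the highest of the other 3 (Egr1, Ier2 and Ier3). NMU mouse 3 had the lowest of 4. Mouse 4 also had the highest Nr4a1 in both CD4 populations. Over the 8 ILC2 libraries the log2 levels of Nr4a1 and Nr4a3 had a Pearson r of 0.91, those of Nr4a1 and Egr3 0.89, and those of Nr4a3 and Ier3 -0.76. These libraries mix treatments, so treatment enters each r. Egr3 had no counts in NMU mice 1 and 3 and PBS mouse 5, so its r rests in part on values at the floor. Over the 36 pairs the median r was 0.31 in ILC2, 0.45 in NMUR1+ CD4 and 0.5 in NMUR1- CD4.

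**Figure D4:**
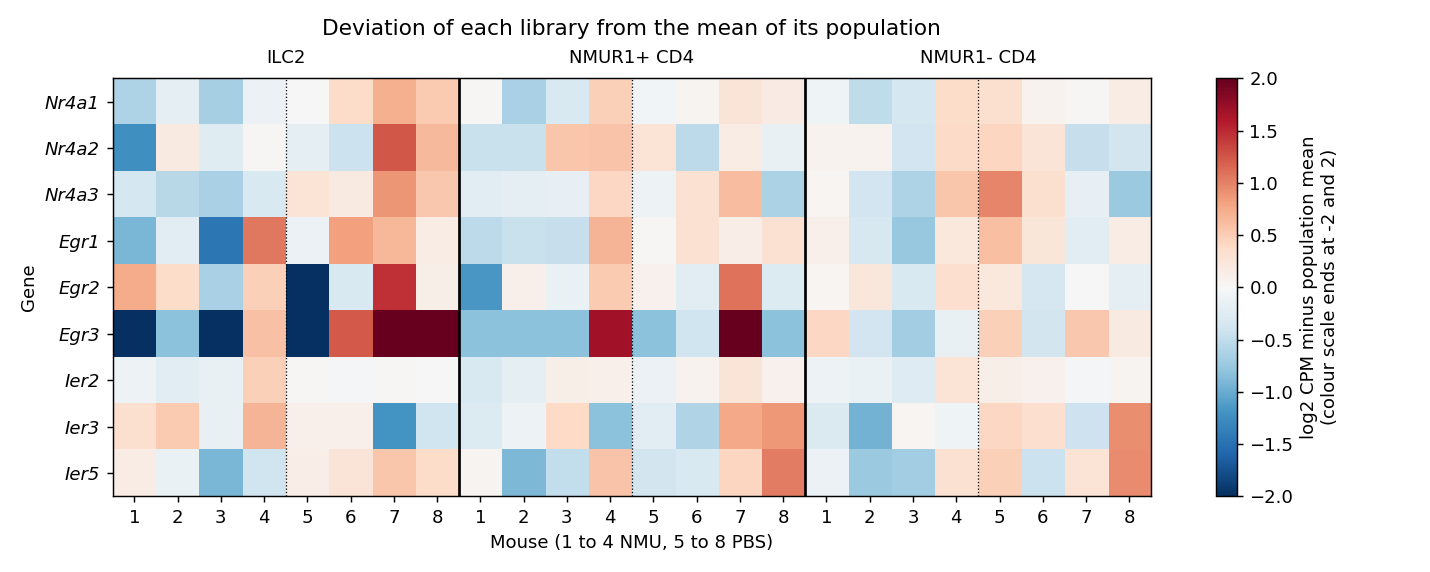
Deviation of each library from the mean of its population. Rows are genes, columns are mice (1 to 4 NMU, 5 to 8 PBS) within each population, and colour gives log2 CPM minus the population mean, ending at -2 and 2. In ILC2 the Nr4a1 row runs from -0.67 in NMU mouse 3 to 0.71 in PBS mouse 7, and the Ier2 row from -0.23 to 0.48.

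Genes with the most similar pattern were ranked by their mean Pearson r with the 9 genes over the 24 libraries, after the mean of each population was subtracted. They were Ciz1 (mean r 0.548), a cell cycle regulator that binds CDKN1A, Sertad1 (0.548), Chka (0.538), the choline kinase of membrane lipid synthesis, Fos (0.526) and Gadd45b (0.523). The median of 12131 genes was 0.0362. Libraries of the same mouse and of the same treatment share their source, so these values are descriptions.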

How the data were processed

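RNA of 24 libraries (6 groups of 4, 1 library per mouse and population) was isolated with RNeasy Micro columns and amplified by NEBNext low-input chemistry, per the labels' protocols. This chemistry marks neither strand nor molecules. STAR 2.5.3 and mm10 are named by the submitters' processing notes. Not given in the sources used here are the counter, its annotation and its strand setting. Deposited by the authors, one file holds their raw counts per gene, of whole reads and not normalized, with no unused column (0). By identifier, 25275 rows matched a RefSeq symbol of GRCm38.p6, and the 1904 others held 0.986% of counts.

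Counts were tested in R 4.3.3 with edgeR 4.0.16 (TMM scaling, filterByExpr with a minimum count of 10, robust quasi-likelihood test, Benjamini-Hochberg over all genes tested, threshold 0.05). NMU and PBS were compared in the 8 libraries of each population, and populations and differences of NMU effects in a fit of all 24 libraries with 6 group means. CPM use TMM-scaled library sizes, and levels per kilobase divide by the GENCODE M21 exon length. The script was tested on simulated data. Alternatives were DESeq2 1.42.0, limma 3.58.1 (voom), DESeq2 size factors, no filter, no immunoglobulin genes, other sets of libraries, the mouse as a replicate block, and leaving out each mouse. Covariates (Jchain, Lyz2) and the removal of 4 libraries above 20% immunoglobulin were chosen after seeing the data. The 9 genes and the lists were chosen with earlier results of these data known. All 9 are named in every comparison, up to 3 genes per direction past the threshold from each list with others of a list where its members are described together, and 5 genes by likeness.

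The labels name the mouse of each library, so the block pairs libraries of the same animal. Of 24 same-mouse pairs of libraries, deviations from group means correlated with r from -0.01 to 0.43, and 11 were over 0.1. Pairs of replicates differed by a chi-square of at least 15.49 per degree of freedom over genes, so no libraries agreed within sampling noise. P-values of NMU against PBS within a population rest on 4 mice per treatment. The main fit of all 24 libraries had no term for the mouse and treated libraries of the same animal as independent. Only the alternative with the mouse as a replicate block took the pairing into account.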

Additional observations from a re-analysis of the deposited data

Results flagged for a closer look

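In 54 groups of 4 libraries (9 genes in 6 groups), 5 had 1 library far from the other 3, with a gap to its nearest neighbour above Dixon's limit for 4 values. About 1 in 20 groups is marked so by chance where values are normally distributed, which does not hold for counts near 0. In NMUR1+ CD4 T cells of NMU mice, mouse 4 stood above the rest for Nr4a3 (21.1 CPM, others 13.4 to 14.1), Egr1 (312 CPM, others 135 to 142) and Egr3 (0.737 CPM, others 0). In NMUR1+ CD4 T cells of PBS mice, mouse 7 stood above the rest for Egr3 (1.78 CPM, others 0 to 0.0544). In ILC2 of NMU mice, mouse 4 stood above the rest for Ier2 (2814 CPM, others 1721 to 1885). The same mouse therefore had 4 of the 5 values. Both Egr3 values rest on few counts, 8 in mouse 4 and 19 in mouse 7, beside libraries at or near 0.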

How the results depend on the processing

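Of 280 alternatives to the 18 called differences of the 9 genes, 274 kept direction and call, 6 lost the call and 0 reversed; the 6 were Ier5 (ILC2 against NMUR1- CD4) without the filter and without mouse 1, 2, 6 or 7, and Nr4a1 (NMUR1+ against NMUR1- CD4) without the immunoglobulin-rich libraries. The cause was not tested.

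Counts of the 9 genes called moved as follows. For NMU in ILC2 (0), the count was 1 without the filter, 2 in DESeq2 and 1 in the fit of all 24 libraries. For NMUR1+ against NMUR1- CD4 (2), it was 4 in DESeq2, 4 with the mouse as a replicate block, 4 in the fit of the 2 populations only, 1 without the immunoglobulin-rich libraries, and 2 to 4 when a mouse was left out. The block changed no other call of the 9 genes.

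Over all genes, NMU in ILC2 (74 called) gave 454 in DESeq2, 1053 in the fit of all 24 libraries, 5 with Jchain and Lyz2 as covariates and 12 to 63 without a mouse. NMU in NMUR1+ CD4 (0) gave 2 in DESeq2 and 0 to 1 without a mouse, and NMU in NMUR1- CD4 (0) gave 21 in DESeq2. NMUR1+ against NMUR1- CD4 (1123) gave 2104 in the fit of the 2 populations only, 393 without the immunoglobulin-rich libraries and 609 to 1035 without a mouse. The difference of NMU effects between ILC2 and NMUR1+ CD4 (98) gave 54 without the filter, 512 in DESeq2, 24 in voom, 46 with the block, 15 without the immunoglobulin-rich libraries and 30 to 106 without a mouse. That between ILC2 and NMUR1- CD4 (72) gave 386 in DESeq2, 21 in voom, 36 with the block and 20 to 83 without a mouse. That between NMUR1+ and NMUR1- CD4 (0) gave 4 in DESeq2 and 1 with the block.

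Values that changed sign were all uncalled. For NMU in ILC2, log2 of Ier2 became -0.01 in voom and -0.0049 with the covariates, and Egr2 -0.65 with the covariates. For NMU in CD4 T cells, Egr2 became 0.25 in NMUR1+ CD4 without the immunoglobulin-rich libraries and Nr4a2 -0.10 in NMUR1- CD4 with the covariates. Egr3 in ILC2 against NMUR1- CD4 became -0.88 in voom and -1.0 with the block. Nr4a2 in NMUR1+ against NMUR1- CD4 became -0.02 in voom, -0.05 with the block and -0.13 without the immunoglobulin-rich libraries. For the difference of NMU effects between ILC2 and NMUR1+ CD4, removal of those libraries gave 0.25 for Egr1, -0.25 for Egr2 and 0.55 for Ier5. Between ILC2 and NMUR1- CD4, voom gave 0.30 for Egr2 and -0.04 for Ier5, and the block gave 0.22 for Egr2. Between NMUR1+ and NMUR1- CD4, voom gave -0.06 for Nr4a3, and removal of the libraries gave -0.31 for Nr4a1, -0.38 for Egr1, 0.10 for Egr2, 0.0017 for Ier2 and -0.53 for Ier5.

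Without a mouse, log2 for NMU in ILC2 ran from -0.33 to 0.81 for Egr2 and from -0.19 to 0.09 for Ier2. In NMUR1+ CD4 it ran from -0.01 to 0.33 for Nr4a2, -0.33 to 0.07 for Nr4a3 and -0.59 to 0.09 for Egr2, and in NMUR1- CD4 from -0.09 to 0.20 for Nr4a2 and -0.53 to 0.08 for Nr4a3. For ILC2 against NMUR1- CD4 Egr3 ran from -0.69 to 0.59, and for NMUR1+ against NMUR1- CD4 Nr4a2 from -0.17 to 0.10. Differences of NMU effects between ILC2 and NMUR1+ CD4 ran from -0.07 to 0.72 for Egr2, -5.01 to 0.60 for Egr3 and -0.54 to 0.12 for Ier5. Between ILC2 and NMUR1- CD4 they ran from -0.70 to 0.17 for Egr1, -0.60 to 0.62 for Egr2 and -0.20 to 0.31 for Ier5. Between NMUR1+ and NMUR1- CD4 they ran from -0.02 to 0.17 for Nr4a1, -0.16 to 0.32 for Nr4a2, -0.30 to 0.44 for Nr4a3, -0.15 to 0.31 for Egr1, -5.08 to 2.87 for Egr3 and -0.17 to 0.04 for Ier2.

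Depth limits Egr3, which had at most 128 counts over the 8 libraries of a population. Counts include amplification copies and are not independent molecules.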
